A study of Homo sapiens with 2 samples.

Results

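The E2F factors, their partner TFDP1, the pocket proteins that bind them and MYBL2 were compared between an ANO5 siRNA culture and a control siRNA culture of NUGC4 cells. NUGC4 is a human gastric cancer cell line, and ANO5 encodes anoctamin 5, a membrane protein. The 10 genes were chosen by name (E2F1, E2F2, E2F3, E2F7, E2F8, RB1, RBL1, RBL2, TFDP1 and MYBL2) out of 14526 named genes. Each siRNA was used at 20 nmol/l and was given 24 h after seeding. Each of the 2 groups holds 1 expression array of 1 culture. The differences below therefore compare these RNA samples, with no spread between replicates and no test. Both arrays come from the same line, and the knockdown rests on 1 ANO5 siRNA treatment, with no other to compare.

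E2F factors bind the promoters of genes needed for DNA synthesis, mostly as dimers with a DP protein such as TFDP1. E2F1, E2F2 and E2F3 are known as activators. E2F7 and E2F8, the atypical members, bind DNA without a DP partner and repress many of the same promoters. The pocket proteins RB1, RBL1 (p107) and RBL2 (p130) hold E2F factors in check until cyclin-dependent kinases phosphorylate them. MYBL2 (B-MYB) joins the MuvB complex and acts on genes of the later G2 and M phases, whereas the same complex with RBL1 or RBL2 and a repressor E2F, called DREAM, silences cell cycle genes in resting cells. Several of these genes are themselves known E2F targets, so the family regulates its own genes.

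The promoters of 4 members are shown because the E2F motif lies close to their start, and that of MYBL2 because this gene had the lowest difference of the 10 although the motif as spelled here is absent from it. Each run holds 250 bases before and 50 bases after a transcript start, from RefSeq on GRCh38.p14, read 5′ to 3′ along the gene. Capitals mark the E2F motif, searched as TTTGGCGC, TTTCCCGC, TTTCGCGC and TTTGCCGC on both strands.
E2F1, chr20:33686336-33686635, minus strand: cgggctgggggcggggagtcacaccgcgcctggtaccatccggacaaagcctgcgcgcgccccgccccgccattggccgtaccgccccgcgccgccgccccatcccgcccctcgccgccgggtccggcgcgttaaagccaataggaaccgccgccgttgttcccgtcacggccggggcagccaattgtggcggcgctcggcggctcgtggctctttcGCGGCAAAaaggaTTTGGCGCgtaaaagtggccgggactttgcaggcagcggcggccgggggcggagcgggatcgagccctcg
E2F2, chr1:23531184-23531483, minus strand: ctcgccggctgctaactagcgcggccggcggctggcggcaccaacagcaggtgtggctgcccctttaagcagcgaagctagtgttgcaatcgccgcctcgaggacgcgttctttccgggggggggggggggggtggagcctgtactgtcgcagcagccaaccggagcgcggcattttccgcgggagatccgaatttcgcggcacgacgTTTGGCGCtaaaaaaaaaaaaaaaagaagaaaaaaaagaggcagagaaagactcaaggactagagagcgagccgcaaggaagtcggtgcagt
E2F3, chr6:20401629-20401928, plus strand: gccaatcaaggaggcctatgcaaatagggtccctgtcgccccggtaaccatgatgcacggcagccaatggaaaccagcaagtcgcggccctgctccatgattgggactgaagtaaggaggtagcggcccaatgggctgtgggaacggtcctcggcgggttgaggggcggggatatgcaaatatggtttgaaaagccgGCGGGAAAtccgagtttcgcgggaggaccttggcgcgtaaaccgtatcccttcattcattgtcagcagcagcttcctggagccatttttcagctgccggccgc
RBL1, chr20:37095948-37096247, minus strand: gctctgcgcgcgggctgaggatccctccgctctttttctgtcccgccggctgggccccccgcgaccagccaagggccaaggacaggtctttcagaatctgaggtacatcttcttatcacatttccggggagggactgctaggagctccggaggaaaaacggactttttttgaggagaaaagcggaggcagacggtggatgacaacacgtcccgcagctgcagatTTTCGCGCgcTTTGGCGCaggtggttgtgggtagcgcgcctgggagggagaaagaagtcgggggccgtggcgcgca
MYBL2, chr20:43666864-43667163, plus strand: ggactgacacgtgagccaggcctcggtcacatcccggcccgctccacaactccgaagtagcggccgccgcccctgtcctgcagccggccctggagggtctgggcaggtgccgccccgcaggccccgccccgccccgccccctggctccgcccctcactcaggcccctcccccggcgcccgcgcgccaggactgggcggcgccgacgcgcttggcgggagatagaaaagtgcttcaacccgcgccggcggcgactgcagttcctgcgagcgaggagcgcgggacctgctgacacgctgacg

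In E2F1 the motif occurs at -33 to -26 and again at -20 to -13, counted from the start of the transcript, in opposite orientations. RBL1 also holds a pair, at -26 to -19 and at -16 to -9, in the same orientation. E2F2 has a single match at -42 to -35, and E2F3 a single match at -53 to -46. TFDP1 has its match farther from the start, at -120 to -113. Windows were found for 9 of the 10 members, all but E2F8, and 5 of these 9 genes had a match. The other E2F3 window of the table, which starts at another transcript, had none, nor had those of E2F7, RB1 and RBL2. The RB1 window, at chr13:48476200-48476499, belongs to a transcript that starts 173 kb inside the gene, so the main RB1 promoter was not searched. For scale, 6.82% of the 8134 measured genes with a window hold the motif in at least 1 window, and 3.31% of all 35116 windows do. A match is a run of letters and not a shown binding site, and a window without one may hold other forms of the motif.

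The check of the knockdown came first. ANO5 had a log2 signal of 3.67 in cells given its siRNA, against 6.83 in cells given the control siRNA. On the ANO5 siRNA array 82 of 105 olfactory receptor genes, which most tissues leave silent, read as high as this value or higher. The epithelial markers EPCAM, CDH1, KRT8, KRT18 and KRT19 were all above the measured range's lower end, as were 5 of 5 markers of gastric or intestinal epithelium. The blood marker PTPRC read 3.49 in cells given ANO5 siRNA and 3.68 in control cells, and 2 of the 5 blood markers, CD68 and LYZ, 1 of the 2 fibroblast markers in the table, COL1A2, and the endothelial marker VWF were in the measured range. The summed log2 signal of the 5 epithelial markers was 18.9 in cells given ANO5 siRNA and 18.5 in control cells, and that of the gastric or intestinal ones was 17.1 and 15.8 in the same order. Their part in the results below was not tested.

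Of the 10 members, 8 were lower by at least 1.5-fold in cells given ANO5 siRNA and 1 was higher, where 20.1% of 9735 measured genes were lower and 23.2% higher by that size. At 2-fold, 7 members were lower and 1 higher, beside 11.3% and 11.2% of the measured genes. The median difference of the members was -1.58 on the log2 scale, beside 0.07 for all measured genes. The members were chosen with results of these arrays known, so these counts describe them and do not test them. All 10 had 1 probe cluster each and all 10 lay in the measured range, which holds genes whose mean log2 signal over both arrays was at least 6.05. E2F1 and E2F2 read 5.13 and 5.84 after ANO5 siRNA, below 6.05, so that they lie in this range through their control values. Array signals depend on the probes, so that levels are compared only within a gene. A culture's signal is an average, so that fewer cycling cells and less RNA per cell cannot be told apart.

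**Figure D1:**
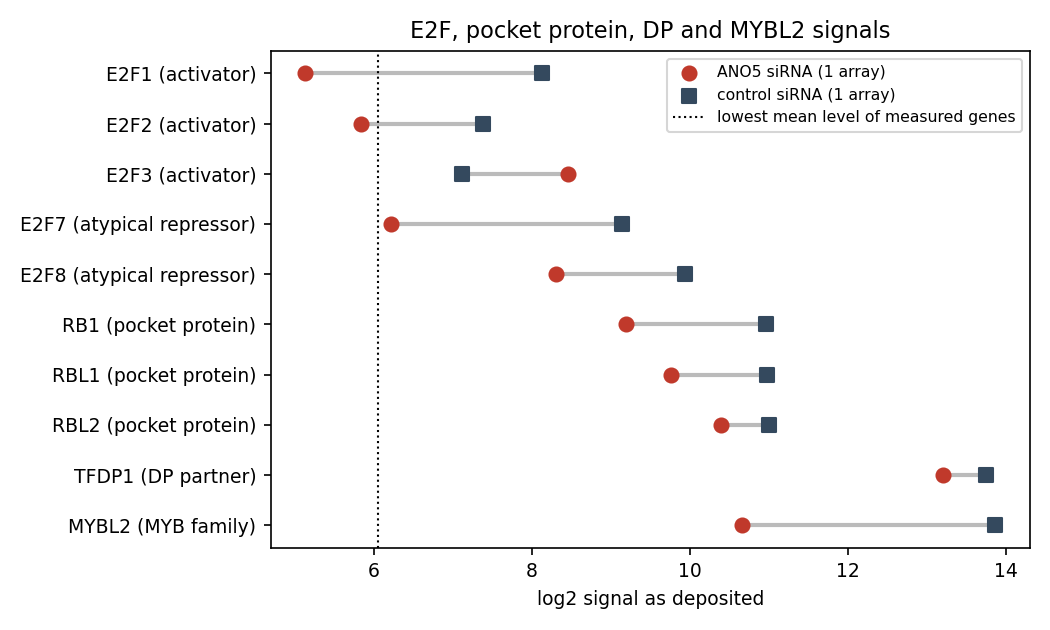
Log2 signal (horizontal axis) of each member on the ANO5 siRNA array (red circles) and the control siRNA array (dark squares), with the roles of the genes in brackets. The dotted line marks a log2 signal of 6.05, and E2F3 is the gene whose ANO5 siRNA value lies to the right of its control value.

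The activators did not go one way. E2F1, which drives entry into S phase and can also promote cell death, read 5.13 in cells given ANO5 siRNA and 8.12 in control cells, a difference of -2.99 or 7.94-fold. Only 72 of the 9735 measured genes were as low or lower, a rank that rests on an ANO5 siRNA value below 6.05. E2F2 read 5.84 in cells given ANO5 siRNA and 7.38 in control cells, a difference of -1.54 or 2.91-fold. E2F3 went the other way and read 8.45 in cells given ANO5 siRNA and 7.11 in control cells, 2.53-fold higher. This size is less rare than that of E2F1, since 563 measured genes were as high or higher. Between E2F3 and E2F1 the differences lay 4.33 log2 units apart, the widest gap between any activators.

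The low signals of E2F1, E2F2 and, less so, E2F7 after ANO5 siRNA bear on their folds. On that array 19 of 105 olfactory receptor genes read as high as E2F1 or higher, 3 as high as E2F2 or higher and 1 as high as E2F7 or higher. With all values below 6.05 raised to 6.05, a setting chosen after seeing the data, E2F1 differed by -2.07 and E2F2 by -1.33. The other 8 members kept their values under that setting. The E2F3 cluster is annotated with transcripts from both of the gene's starts, of which 1 window holds the E2F motif, and the array gives a single value for them.

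Both atypical repressors were lower. E2F7 read 6.22 in cells given ANO5 siRNA and 9.14 in control cells, a difference of -2.92 or 7.57-fold, and 83 measured genes were as low or lower. E2F8 read 8.30 in cells given ANO5 siRNA and 9.93 in control cells, a difference of -1.63 or 3.1-fold. As deposited, E2F7 and E2F1 lay 0.07 log2 units apart, but with values raised to 6.05 E2F7 minus E2F1 was -0.85. The class held no member that was higher.

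The 3 pocket proteins were all lower, by graded amounts. RB1, the retinoblastoma protein, which binds mainly activator E2Fs, read 9.19 in cells given ANO5 siRNA and 10.96 in control cells (-1.77, 3.41-fold). RBL1, which accumulates in cycling cells, read 9.76 in cells given ANO5 siRNA and 10.97 in control cells (-1.21, 2.31-fold). RBL2, the pocket protein that prevails in resting cells, read 10.39 in cells given ANO5 siRNA and 11.00 in control cells (-0.61, 1.53-fold). The differences of RB1 and RBL2 lay 1.16 log2 units apart, with RBL1 between them. RBL2 lay just past 1.5-fold, and 1911 measured genes were as low or lower, so that its difference is of a common size on these arrays.

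TFDP1 read 13.20 in cells given ANO5 siRNA and 13.74 in control cells, a difference of -0.54 that did not reach 1.5-fold. As the DP subunit it dimerises with the activators as well as with E2F4 and E2F5. MYBL2 read 10.66 in cells given ANO5 siRNA and 13.86 in control cells, a difference of -3.20 or 9.19-fold, and 50 measured genes were as low or lower. Its value after ANO5 siRNA is at or above 76.8% of the clusters on its array. Of the 3 members near -3 it is the only one whose lower value was above all of those receptor genes.

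Set side by side, the median difference was -1.54 for the 3 activator E2Fs, -2.27 for the 2 atypical repressors and -1.21 for the 3 pocket proteins. The activators spanned 4.33 log2 units, the repressors 1.29 and the pocket proteins 1.16. The activator median lay 0.73 above that of the repressors and 0.33 below that of the pocket proteins. The activator median is the value of E2F2, and with values raised to 6.05 activators minus pocket proteins was -0.12. These gaps between classes are smaller than the span within the activators. By the mean, which E2F3 pulls up, the activators differed by -1.06, the repressors by -2.27 and the pocket proteins by -1.20. The order of activators and pocket proteins therefore turns with the choice of median or mean, while the repressors are lowest by both.

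**Figure D2:**
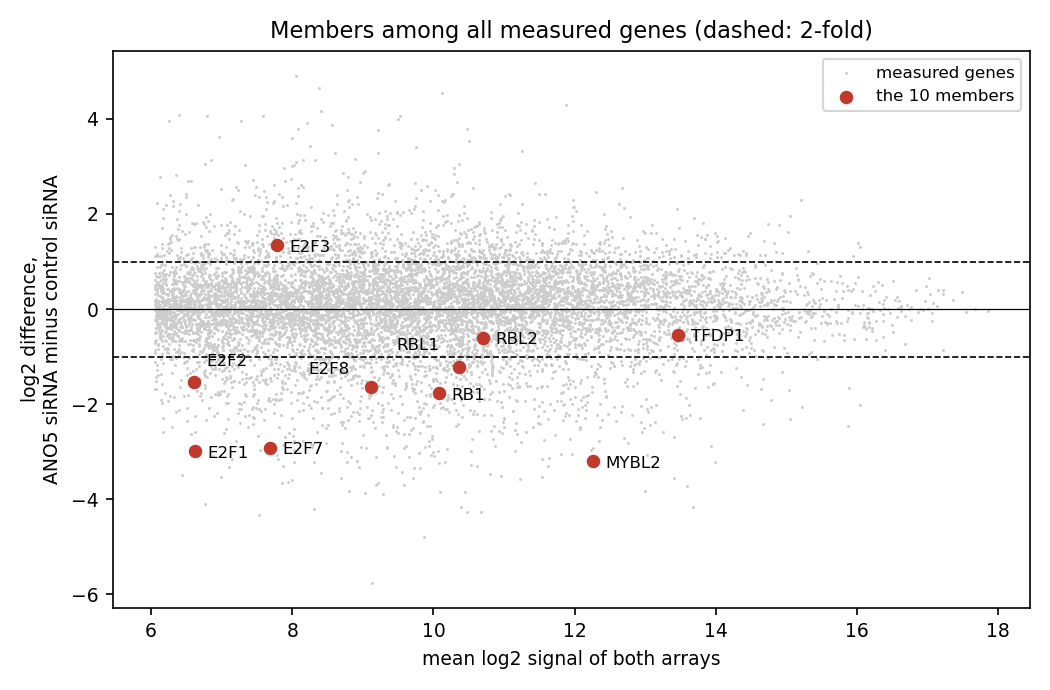
Log2 difference, ANO5 siRNA minus control siRNA (vertical axis), against the mean log2 signal of both arrays (horizontal axis) for 9735 measured genes (grey) and the 10 members (red). Dashed lines mark 2-fold. MYBL2, E2F1 and E2F7 lie near -3, at different mean signals, and E2F3 is the only member above 0.

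The size of differences across genes depended little on the signal. With the measured genes split evenly by mean signal, the 3245 lowest genes hold E2F1, E2F2, E2F3 and E2F7, and 11.2% of genes were lower and 10.6% higher by 2-fold. In the 3246 middle genes, with E2F8, RB1, RBL1 and RBL2, these shares were 13% and 12.8%. In the 3244 highest genes, with TFDP1 and MYBL2, they were 9.77% and 10.1%. Among the genes of its own signal range, E2F1 was among the lowest 0.555% of genes, E2F7 among the lowest 0.647% and MYBL2 among the lowest 0.339%.

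In the rest of the E2F and MYB families no measured gene was higher by 1.5-fold, and the lowest was MYB. MYB, a relative of MYBL2 best known from blood progenitors, read 8.67 in cells given ANO5 siRNA and 10.23 in control cells (2.95-fold lower). E2F5, which acts in repressor complexes with pocket proteins, was 2.33-fold lower. E2F4, the main E2F of DREAM, read 11.99 in cells given ANO5 siRNA and 12.67 in control cells (1.6-fold lower). TFDP2, the other DP partner, differed by 0.06, and E2F6, a repressor that acts without pocket proteins, by 0.52. Of the 5 measured genes of this group 3 were lower by 1.5-fold and 0 higher, beside 20.1% and 23.2% of all measured genes. TFDP3 and MYBL1 lay below the measured range.

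The MuvB core, to which MYBL2 or the pocket proteins attach, had 3 of 5 genes lower by 1.5-fold and 0 higher, beside 20.1% and 23.2% of all measured genes. LIN9, a subunit needed for MYBL2 to act with the complex, read 7.01 in cells given ANO5 siRNA and 8.25 in control cells (2.36-fold lower). LIN54, which contacts the CHR element in target promoters, was 1.54-fold lower and RBBP4, a histone-binding protein, 1.51-fold lower. LIN37 and LIN52 differed by -0.09 and -0.07. The median of these 5 was -0.59, far from the -3.20 of MYBL2.

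Among the kinases and cyclins that phosphorylate pocket proteins, 6 of 9 measured genes were lower by 1.5-fold and 1 higher. Over all measured genes these shares were 20.1% and 23.2%. The group's median was -2.25, which is the value of CCNE2. CCNE2 read 5.77 in cells given ANO5 siRNA, where 4 of 105 olfactory receptor genes read as high or higher, and 8.02 in control cells. CCNE2 thus lies in the measured range through its control value. CDK2 differed by -5.75, CDK6 by -4.10 and CDK4 by -2.71, whereas CCND1, the cyclin that activates CDK4 and CDK6, differed by 0.64, CCND3 by 0.06 and CCND2 by -0.14. CDK2 read 6.26 in cells given ANO5 siRNA, where 1 of 105 olfactory receptor genes read as high or higher, and 12.01 in control cells. CDK6 read 4.71 in cells given ANO5 siRNA, where 29 of 105 olfactory receptor genes read as high or higher, and 8.81 in control cells, so that it lies in the measured range through its control value. With values raised to 6.05, CDK6 differed by -2.76 and the group's median was -1.97, and without the filter on low values the median was -1.48. Of 4 measured CDK inhibitors 0 were lower and 2 higher by 1.5-fold, too few to set apart from the 20.1% and 23.2% of all measured genes. CDKN1A (p21) differed by 0.93 and CDKN1B (p27) by 0.67, and CDKN1C and CDKN2D by 0.08 and 0.07. The count of higher inhibitors was 1 after loess on the mean level and 0 at 2-fold. CDKN2B lay below the measured range, and CDKN2C was not among the named genes.

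Of 14 measured corepressors that bind RB1, 3 were lower and 3 higher by 1.5-fold, with a median of 0.26. This is 21.4% each way, near the 20.1% and 23.2% of all measured genes. SUV39H1, a histone H3 lysine methyltransferase that RB1 recruits, read 10.37 in cells given ANO5 siRNA and 12.01 in control cells (3.12-fold lower), and CTBP2 was 2.19-fold and RBBP7 1.56-fold lower. The histone demethylase KDM5B was 2.22-fold, ARID4B 2.04-fold and the remodelling ATPase SMARCA2 1.95-fold higher. The deacetylases HDAC1, HDAC2 and HDAC3 differed by 0.29, -0.03 and 0.22.

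E2F coactivators were not lower in any measured case by 1.5-fold, and 3 of 7 were higher. Over all measured genes 20.1% were lower and 23.2% higher by that size. At 2-fold 1 of the 7 was higher, beside 11.2% of all measured genes, and EP300 was not among the named genes. KAT2B (PCAF), an acetyltransferase, read 9.38 in cells given ANO5 siRNA and 7.85 in control cells (2.89-fold higher), KAT5 was 1.92-fold and TRRAP 1.59-fold higher, and CREBBP differed by -0.08. Ubiquitin ligase subunits that act on E2F factors or pocket proteins divided. CKS1B was 19.3-fold, CDC20 7.62-fold, CCNF, which targets E2F1, E2F2 and E2F3 for degradation, 3.58-fold and SKP2 2.64-fold lower. SKP1 was 2.23-fold and FZR1 1.64-fold higher, and CUL1 and BTRC differed by 0.50 and 0.48. The E2F6 complex with polycomb proteins differed little, with 5 of 7 measured genes within 1.5-fold and a median of -0.06. With so few genes, 1 lower and 1 higher is close to the shares of all measured genes. PCGF6 was 1.55-fold lower and L3MBTL2 1.6-fold higher.

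**Figure D3:**
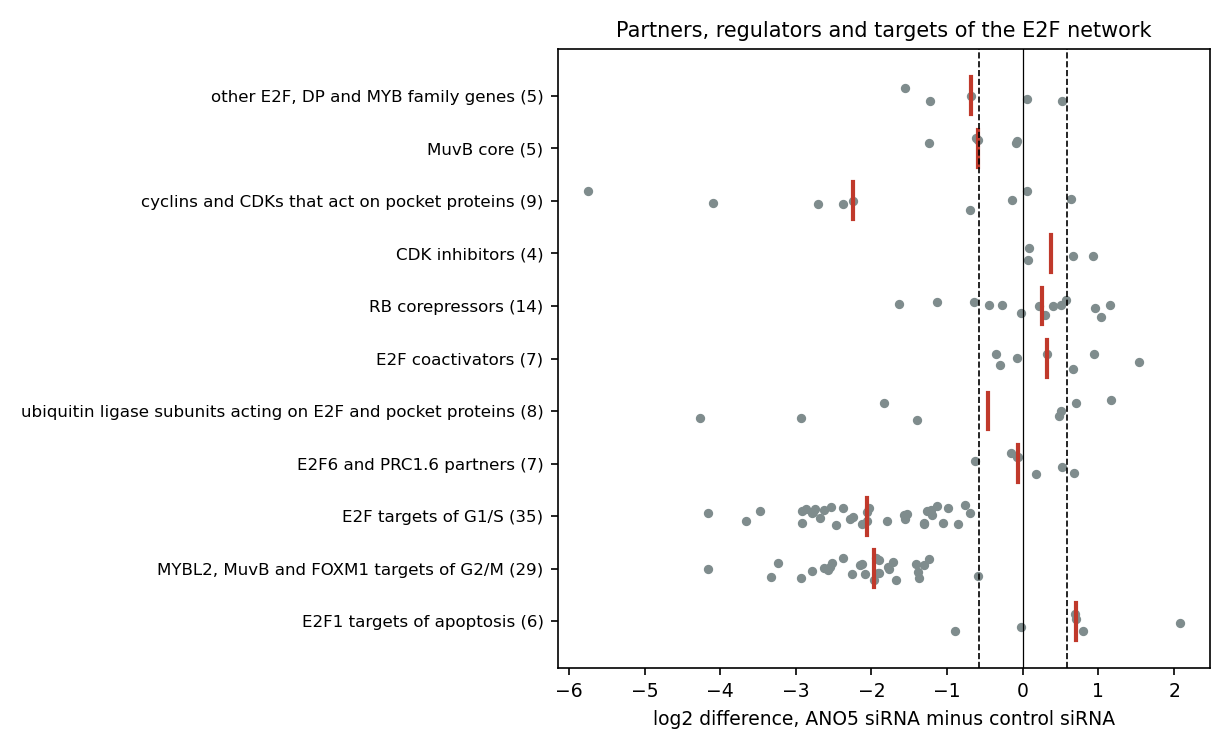
Log2 difference, ANO5 siRNA minus control siRNA (horizontal axis), for each measured gene (grey points) of 11 gene groups around the members, with the number measured in brackets and the group median as a red bar. Dashed lines mark 1.5-fold. The G1/S and G2/M target groups lie wholly left of the lower line, with medians of -2.06 and -1.96.

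In the lists of G1/S and G2/M targets of the members, every measured gene was lower. All 35 measured E2F targets of G1/S were lower by at least 1.5-fold and 31 by 2-fold, with a median of -2.06. Of all measured genes 20.1% were lower by 1.5-fold and 11.3% by 2-fold. The lowest were GINS1 (-4.16), GINS2 (-3.66) and TK1 (-3.47), and PRIM1 and UHRF1 each differed by -2.92. At the other end CCNE1 differed by -0.70, RPA2 by -0.77, PCNA by -0.85 and CDC6, a licensing factor, by -0.99. CDC6 read 11.29 in cells given ANO5 siRNA and 12.28 in control cells, just short of 2-fold. All 29 measured targets of MYBL2, MuvB and FOXM1 were lower by at least 1.5-fold and 28 by 2-fold, with a median of -1.96. PLK1 (-4.16), AURKB (-3.33), UBE2C (-3.23) and CDC20 (-2.93) were the lowest, and CKS2 differed by -0.59. FOXM1, the forkhead factor that follows MYBL2 onto MuvB, read 10.83 in cells given ANO5 siRNA and 12.77 in control cells. Below the measured range lay MCM10, POLD1 and GTSE1. Both lists were chosen with earlier results of these data known, so their counts describe them and do not test them.

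The apoptotic genes attributed to E2F1 did not share this direction. Of 6 measured, 4 were higher and 1 lower by 1.5-fold, with a median of 0.70, beside 23.2% of all measured genes higher and 20.1% lower. The counts depend on the filter and the threshold: 2 were higher when genes under the 50th percentile were left out and 1 at 2-fold, and without the filter 2 were lower and the median was 0.33. BCL2L11 (BIM) was 4.23-fold, CASP9 1.74-fold, BID 1.64-fold and APAF1, the apoptosome scaffold, 1.61-fold higher. HRK was 1.87-fold lower and CASP8 differed by -0.03. TP73 and PMAIP1 lay below the measured range, where TP73 read 4.24 in cells given ANO5 siRNA and 5.64 in control cells.

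Promoter letters were then set beside the differences of all genes. Of 8134 measured genes with a window, 555 held the E2F motif shown in capitals above. Of these 107, or 19.3%, were lower by 2-fold in cells given ANO5 siRNA and 42, or 7.57%, higher, beside 11.4% and 11.1% of all 8134. Genes with the motif in the last 150 bases of the window, around the start, were lower in 25.2% of 282 cases. Without the members and the genes of the groups above, a setting chosen after seeing the data, 16.0% of 524 genes with the motif were lower by 2-fold and 10.4% of 7497 genes without it. Most genes with the motif thus did not reach 2-fold in either direction. The median GC content of the windows was 64.3% with and 64.9% without the motif. With genes split evenly into low, middle and high GC content, 18.9%, 19.8% and 19.0% of genes with the motif were lower by 2-fold, against 12.5%, 11.2% and 8.74% of those without.

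The CHR element, searched as TTTGAA and TTCGAA on both strands, is the site through which MuvB reaches its targets. Of 1273 genes that held it, 17.0% were lower and 10.5% higher by 2-fold, beside 11.4% and 11.1% of all 8134 with a window. Genes with the element in the last 150 bases of the window were lower in 22.5% of 573 cases, beside 25.2% for the E2F motif. The CHR element is a short motif and occurs in 16.4% of all windows. Of the G1/S targets with a window, 19 of 31 held the E2F motif and 2 the CHR element. Of the G2/M targets with a window, 2 of 23 held the E2F motif and 18 the CHR element. Both groups were lower, by similar medians, although their promoters carry different letters. These genes are known targets partly because of such motifs, so this split is a check of the lists and not a result of the arrays. Among the members, the CHR letters occurred in a window of E2F3 at -65 to -60 and of RBL2 at 25 to 30.

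**Figure D4:**
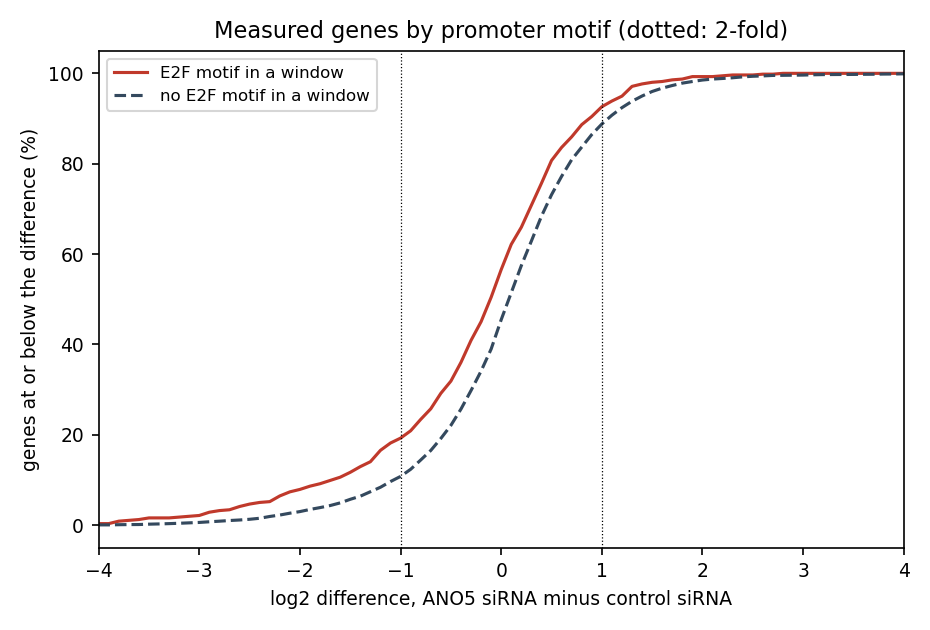
Cumulative share of measured genes (vertical axis, percent) at or below each log2 difference, ANO5 siRNA minus control siRNA (horizontal axis), for 555 genes with the E2F motif in a promoter window (solid red) and 7579 without (dashed). Dotted lines mark 2-fold. At the lower line the curves stand at 19.3% and 10.8%.

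Within the set, a match to the motif did not go with a single direction. E2F1, E2F2 and RBL1, which hold it next to the start, were 7.94-fold, 2.91-fold and 2.31-fold lower. E2F3, which holds it too, was 2.53-fold higher, and TFDP1 differed by -0.54. MYBL2 and E2F7, whose windows lack these letters, were among the members with the lowest differences.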

How the data were processed

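Total RNA of 2 cultures was labelled with biotin and read on 1 array each, per the labels' protocols. The values are log2 signal as deposited by the authors, read as such from their range of 2.13 to 18.15. Per the submitters' processing notes, the tool was Agilent Feature Extraction 12.0.3.1, although the cluster identifiers look like those of a different array maker. Normalization, background correction and build of the array's clusters: not given in the sources used here. Depth has no meaning for arrays, and their number limits the precision.

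Of 17345 clusters, 14544 had 1 gene symbol in the platform annotation, 0 had several and 2801 had none. All 14526 genes matched a current record by Entrez identifier. For 16 genes with more clusters, the brightest by the mean over both arrays was kept. Measured genes had a mean at or above the 33rd percentile. Values were used as deposited. Differences are ANO5 siRNA minus control siRNA, called by size at 1.5-fold or 2-fold, with no test. Members and gene lists were chosen with earlier results of these data known. Named genes are the members, the shorter lists and up to 4 ends each way of longer ones. The differencing, scaling and calling steps were run on simulated data without noise, with planted differences past 1.5-fold. That run checks the code and not the precision of these arrays. Alternatives were 4 scalings, floors, filters, the threshold and the mean. Promoters came from RefSeq (GRCh38.p14). Python 3.11.15, numpy 2.4.6, pandas 2.3.3, statsmodels 0.14.6 and matplotlib 3.10.9 were used.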

Additional observations from a re-analysis of the deposited data

How the results depend on the processing

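Of 70 values of single members under alternatives, 69 kept their direction and their side of 1.5-fold, and 0 reversed. The exception was TFDP1, which passed 1.5-fold after loess on the mean level (-0.66). E2F3 ranged from 1.29 to 1.35 and MYBL2 from -3.34 to -3.19. The floor at each array's 25th percentile (5.05) moved no member, and all members have 1 cluster, so that these alternatives could not test them. All 24 values of the class medians stayed on their side. The MuvB median lay at the 1.5-fold line and moved to -0.58 with median centring, -0.09 with the filter at the 50th percentile and -0.52 as a mean. Its count of lower genes was 1 with that filter and 1 at 2-fold. At 2-fold 1104 measured genes were lower and 1086 higher, beside 1961 and 2257 at 1.5-fold, because the threshold itself changed. The G1/S target median ranged from -2.20 to -2.05 and that of G2/M targets from -2.12 to -1.95. No paired analysis was possible because each group holds 1 array. No replicate could be left out for the same reason. Low signal limits the folds of E2F1, E2F2, E2F7, CDK2, CDK6 and CCNE2.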
